A study of Mus musculus with 6 samples.

Results

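Corticotropes are the cells of the anterior pituitary that make adrenocorticotropic hormone (ACTH), and here they were the 479 barcodes of the 2 pituitary libraries that met a fixed set of limits on their unique molecular identifiers (UMIs, 1 per captured transcript). A barcode was a member if it had at least 200 genes, at most 25% mitochondrial UMIs, at least 5% of its UMIs from Pomc, at most 1 UMI of Pcsk2 and Pax7 together, under 30% Gh and under 10% Prl. These limits gave 237 of 5157 kept barcodes in the control library (4.60%, exact binomial 95% interval 4.04 to 5.20) and 242 of 5087 in the stress library (4.76%, 4.19 to 5.38). The 2 pituitary libraries had 10244 kept barcodes, and the 6 libraries of the series had 23083 barcodes in all.

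The series profiled the hypothalamic paraventricular region, the pituitary and the adrenals by droplet single-cell RNA sequencing. The mice were C57BL/6, aged 10 weeks, and controls were compared with mice that had gone through chronic social defeat for 21 days. Each of the 2 pituitary libraries came from the pooled glands of 5 mice, dissociated with papain, and both suspensions were run side by side on a 10x chip, each in its own lane. With 1 library per group there was no test of stress against control: the intervals given below cover counting error only, and the spread between mice was not measured.

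Corticotropes cut the precursor pro-opiomelanocortin, the product of Pomc, into ACTH and release it from dense granules when corticotropin-releasing hormone (CRH) binds the receptor encoded by Crhr1 or vasopressin binds the one encoded by Avpr1b. ACTH drives glucocorticoid output by the adrenal cortex, and glucocorticoids act back on these cells through the receptor encoded by Nr3c1 to restrain Pomc. The transcription factor encoded by Tbx19 (TPIT) marks the Pomc lineage. Melanotropes of the intermediate lobe also make Pomc, but they use Pcsk2 and Pax7 and cut the precursor further, to melanocyte-stimulating hormone.

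Pomc, Pcsk2, Pax7, Gh and Prl chose the members, so their values are a description. The Pomc share of a member ran from 5.15% to 60.5% in the control library, with a median of 12.9%, and from 5.01% to 46.6% in the stress library, with a median of 12.9%. The nearest members above the limit had 5.15% and 5.01% Pomc, and the nearest barcodes below it that met the other limits had 4.77% and 4.996%. Between 4% and 5% lay 14 and 11 such barcodes, against 23 and 15 members from 5% to 6%, so the limit does not lie in a gap. In the control library no other 1% bin held as many members as that from 5% to 6%. The fullest bin of the stress library began at 7%, with 23 members. All other barcodes under 5% had a median of 0.223% and 0.199% Pomc. Of the members, 227 and 228 had no UMI of Pcsk2 or Pax7, and 10 and 14 had 1. The Gh limit alone left out 1 and 3 barcodes, and 7 and 18 members had 10% to 30% Gh.

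**Figure D1:**
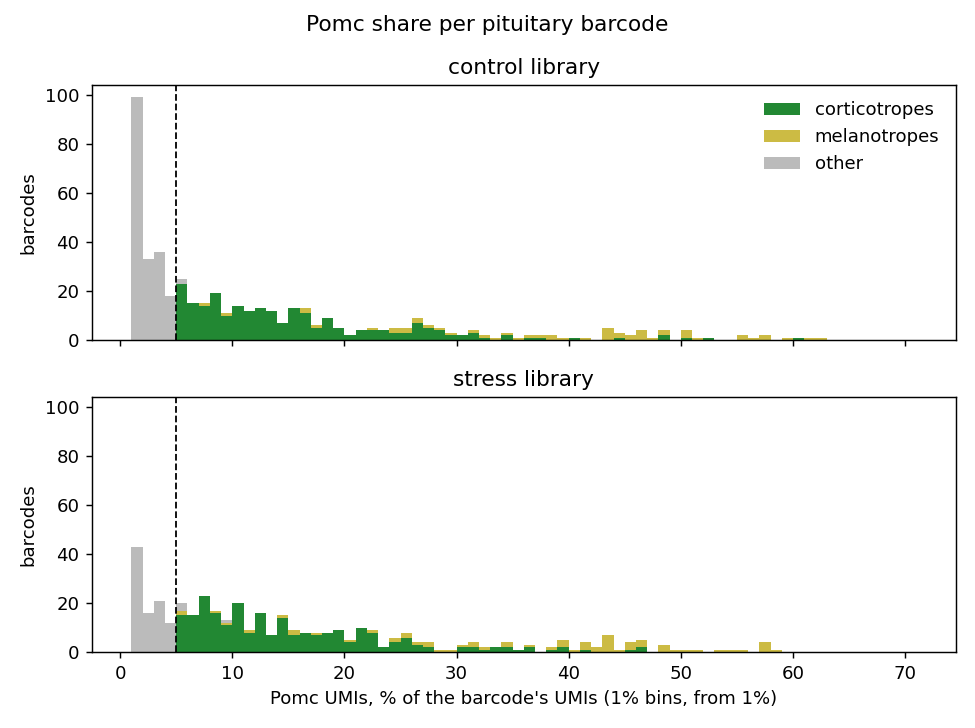
Pomc UMIs as a percentage of each barcode's UMIs (x axis, 1% bins from 1% up) against the number of barcodes (y axis) in the control (top) and stress (bottom) library, with corticotrope members in green, melanotropes in yellow, other barcodes in grey and the 5% limit dashed. Most members lie between 5% and 30%, while the melanotrope medians are 43.4% and 41.2%.

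The members held 1598489 UMIs in the control and 1818922 in the stress library, with medians of 6552 and 7444 UMIs and 2453 and 2622 genes per member. The median mitochondrial share was 4.54% and 4.31%. Somatotropes, taken as barcodes with at least 30% Gh, had medians of 10810 and 11642.5 UMIs, so shares of members with a UMI were compared after each barcode was thinned to 2000 UMIs; Gh fills over 30% of a somatotrope's UMIs by definition, which lowers its shares of other genes. Free RNA of other hormone cells can give UMIs in any barcode of such libraries, and its part was not tested here. After thinning, 51.9% and 38.8% of members and 39.1% and 31.0% of somatotropes had a UMI of Lhb, a gonadotrope hormone gene, and the median Gh share of a member was 3.01% and 4.001%. Pou1f1, the transcription factor gene of somatotropes, was seen in 3.38% and 4.55% of thinned members, against 30.5% and 29.5% of somatotropes. The 2 pituitary libraries shared 39 barcode sequences, 1 of them a member in both, and 14 members had a barcode sequence that also occurred in a library of another tissue. No doublet caller was run; leaving out the members with more than 2 times the median UMIs kept 226 and 233.

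Markers that the limits did not use matched the name. Tbx19 stood at 213 CPM (UMIs per 1000000 UMIs) in control members and 212 in stress members, against 3.48 and 2.45 in all other kept pituitary barcodes. Crhr1 stood at 141 and 175 CPM, against 2.18 and 1.58 in the others. After thinning, 33.8% (27.8 to 40.2) and 31.8% (26.0 to 38.1) of the members had a UMI of Tbx19, against 0.360% and 0.215% of somatotropes. Crhr1 was seen in 21.9% (16.8 to 27.8) and 34.3% (28.3 to 40.6) of thinned members and in 0.09% and 0.154% of somatotropes. Unthinned, 64.1% and 65.3% of members had a UMI of Tbx19, and 54.4% and 67.8% one of Crhr1. The vasopressin receptor gene Avpr1b was sparse, with 39 and 48 UMIs over all members (24.4 and 26.4 CPM), against 0.352 and 0.214 CPM in the other barcodes. The melanotrope enzyme gene Oacyl, which the limits did not use, had 4 and 5 UMIs in the members and was seen in 0.00% and 0.826% of thinned members, against 56.4% and 53.8% of thinned melanotropes. Drd2, the dopamine receptor gene of melanotropes, was at 0 UMIs in the members of both libraries, and at 4.51 and 0 CPM in the melanotropes themselves.

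In the annotation of GRCm38 (GENCODE M21), Pomc lies on chromosome 12 from 3954951 to 3960642 on the plus strand, Tbx19 on chromosome 1 from 165137855 to 165160773 on the minus strand, and Crhr1 on chromosome 11 from 104132855 to 104175523 on the plus strand. All 3 are protein-coding genes.

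The genes that led the members over the other barcodes were ranked by the smaller of the log2 ratios in the 2 libraries, a description because the members were chosen from the same counts. Of 2102 genes with at least 100 UMIs in the members of each library, 467 were at least 2-fold higher in both libraries (22.2%) and 24 at least 8-fold higher (1.14%). Gh took 436703 and 466046 CPM of the other barcodes, against 34249 and 53011 CPM of the members, which lowers the CPM of all other genes there. Pomc did the same in the members to a lesser extent, at 164741 and 152479 CPM. The part of this in the 2 counts was not tested. Crhr1 led with log2 ratios of 6.02 in the control and 6.79 in the stress library, followed by Tbx19 with 5.94 and 6.43 and Nmb, which encodes the peptide neuromedin B, with 5.00 and 5.36. Pomc itself had 4.70 and 4.71. The list went on with Sparcl1, a secreted matricellular protein, AW551984, Ccdc109b, a subunit of the mitochondrial calcium uniporter, Tnnt1, a troponin T of slow muscle, and Esm1, a secreted proteoglycan. Obsl1, Rprml, Emd (emerin of the inner nuclear membrane), Mt2 (a metallothionein) and Tmem91 closed the list, with Tmem91 lowest at 3.55 and 4.36.

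**Figure D2:**
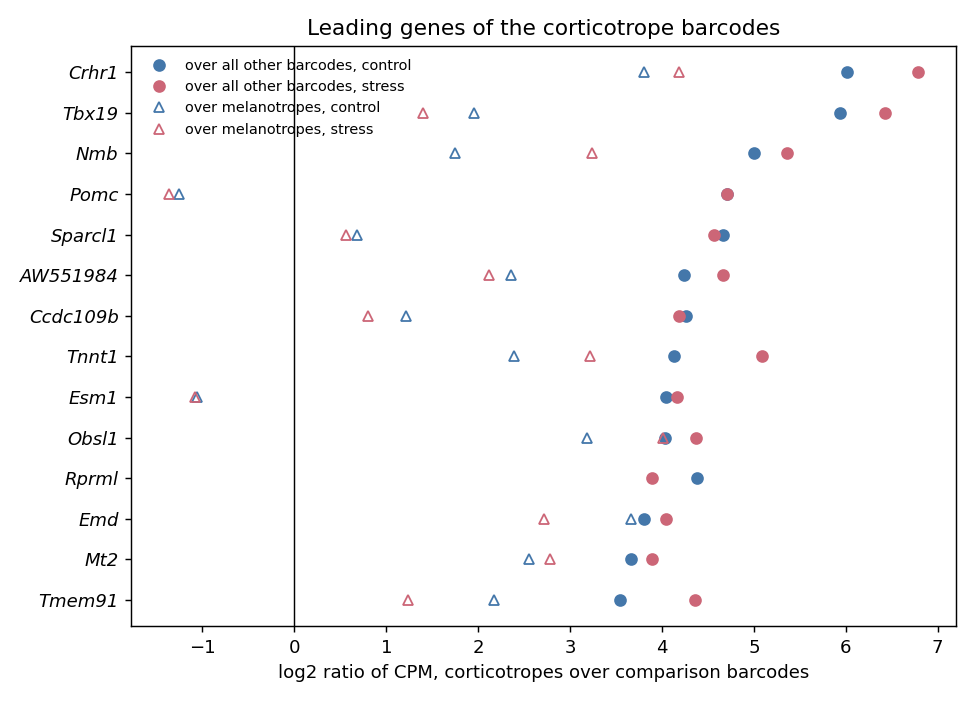
The log2 ratio of CPM in corticotrope members over all other kept barcodes (filled circles) and over melanotropes (open triangles) for 14 of the 15 leading genes, control in blue and stress in red; genes with 3 or fewer UMIs in the melanotropes have no triangle. All 14 lie above 3 against the other barcodes, while Pomc and Esm1 lie below 0 against melanotropes.

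Against melanotropes, the other Pomc-rich barcodes (55 in the control and 65 in the stress library), 11 of the 15 leading genes were still at least 2-fold higher in both libraries. Crhr1 stood at 9.02 and 8.54 CPM in melanotropes and Tbx19 at 54.1 and 79.0 CPM, which put the members 3.8 and 4.19 (Crhr1) and 1.95 and 1.40 (Tbx19) higher on the log2 scale. Pomc went the other way, with 394379 and 393232 CPM in melanotropes against 164741 and 152479 CPM in the members. Esm1 was lower in the members as well, at 67.6 and 83.0 CPM against 139.8 and 175 CPM. Sparcl1 and Ccdc109b were less than 2-fold higher than in melanotropes in 1 library or both. Sparcl1 had 277 and 231 CPM against 171 and 156, and Ccdc109b 510 and 444 CPM against 219 and 254. The larger Pomc share of melanotropes lowers the CPM, and the shares after thinning, of other genes there. Its part in the count of 11 and in these ratios was not tested.

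Genes of the glucocorticoid arm also parted the members from melanotropes. Nr3c1, the glucocorticoid receptor gene, stood at 134.5 CPM in control members and 142 in stress members, and after thinning 26.2% and 22.3% of the members had a UMI of it, against 0 of 55 (up to 6.49%) and 3.08% of melanotropes and 12% and 10.4% of somatotropes. Mt1 and Mt2, metallothionein genes that bind zinc and copper and respond to glucocorticoids, were at 2947 and 3614 CPM and at 2219 and 2523 CPM. After thinning, 80.2% and 88.4% of members had a UMI of Mt2, against 27.3% and 36.9% of melanotropes and 13.05% and 16.0% of somatotropes.

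Pomc stood at 164741 CPM in control and 152479 CPM in stress members, a log2 ratio of -0.11, and the limit on Pomc bears on that value. Pcsk1, the convertase that frees ACTH from the precursor, stood at 65.1 CPM (104 UMIs) in the control and 112 CPM (203 UMIs) in the stress library, a log2 ratio of 0.78 (0.43 to 1.13), where the other barcodes had 0.09. It was seen in 29.1% and 51.2% of members, or 11.8% and 22.3% after thinning, and the ratio ran from 0.63 to 0.85 over the alternatives. Pcsk1 lies on chromosome 13 from 75089826 to 75134861, on the plus strand. Cpe, the carboxypeptidase that trims the cut ends, had 955 and 1053 CPM (0.14, 0.04 to 0.24). Ctsl, a cathepsin that can also cut the precursor, had 189.6 and 229 CPM (0.27, 0.05 to 0.49). Pam, the amidating enzyme, had 268 and 255 CPM (-0.07, -0.27 to 0.12), and the chaperone genes Scg5 and Pcsk1n had log2 ratios of 0.07 and -0.04. Of the 10 processing genes listed, 6 reached the 100 UMIs required, 4 of them above 0 and none past 2-fold, with a median of 0.10 against -0.12 in the other barcodes; 51.1% of all 4321 genes compared were above 0.

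The promoters of Pomc and Pcsk1 are shown because these genes make and cut the hormone precursor. The sequences are RefSeq's, on GRCm38.p6, Pomc at chr12:3954795-3954944 and Pcsk1 at chr13:75089707-75089825, both on the plus strand. That of Pomc runs up to the base before its RefSeq start, which differs from the GENCODE start given above. That of Pcsk1 stops at the base before its GENCODE start, short of its RefSeq start. Capitals mark TATAAA in Pomc and TGACGTCA, the cyclic AMP response element, in Pcsk1.
Pomc: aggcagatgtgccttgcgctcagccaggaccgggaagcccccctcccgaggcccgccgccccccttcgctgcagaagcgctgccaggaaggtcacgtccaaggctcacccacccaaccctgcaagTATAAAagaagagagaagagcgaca
Pcsk1: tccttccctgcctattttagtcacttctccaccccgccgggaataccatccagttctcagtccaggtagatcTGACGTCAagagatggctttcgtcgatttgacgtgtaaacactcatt
TATAAA began 25 bases before the RefSeq start of Pomc. It was found on either strand within 250 bases before the start in 14.3% of the 27025 genes with a promoter entry. TGACGTCA began 78 bases before the RefSeq start of Pcsk1 and was found in 1.77% of genes. A match is a string of letters, and nothing was measured on it here.

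The receptors through which other signals reach corticotropes were mostly too sparse to compare. Only 3 of 16 listed receptors reached 100 UMIs. Crhr1 had 226 UMIs in the control and 318 in the stress library, a log2 ratio of 0.31 (0.06 to 0.56) that ran from 0.12 to 0.77 over the alternatives. Gabbr1, a subunit of the metabotropic GABA receptor, had 50.7 and 63.8 CPM (0.33, -0.09 to 0.76), and Il6ra, the interleukin-6 receptor, was lower in the stress library with 71.9 and 46.7 CPM (-0.62, -1.04 to -0.21). The ratio of Il6ra in the other barcodes was -0.04. Vipr2, Sstr2, Drd2 and Mc2r had 0 UMIs in the members of both libraries, where a count of 0 allows up to 3 UMIs per library. Il6st, the shared receptor subunit for LIF and interleukin-6, had 32 and 51 UMIs, and Lifr 27 and 22.

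Signalling downstream of the CRH receptor runs through cyclic AMP and protein kinase A, with calcium and MAP kinase branches. Of 30 such genes, 13 were measured, 8 of them above 0 and 2 at least 2-fold higher, against 51.1% and 0.602% of all genes. The median was 0.06. Gnas, the stimulatory G protein, had 6602 and 6457 CPM (-0.03), Prkar1a, a regulatory subunit of protein kinase A, 367 and 362 CPM (-0.02), and Crem, a cyclic AMP-responsive transcription factor, 393.5 and 424 CPM (0.11). Their differences were within counting error. The 2 genes past 2-fold, both higher in the stress library, encode regulators of G protein signalling. Rgs4 stood at 37.5 CPM in 27 control members and 92.4 CPM in 58 stress members (1.29, 0.87 to 1.75), against -0.07 in the other barcodes. The top 5 members held 50% of its UMIs in the control and 33.9% in the stress library, and its ratio was 0.85 among members with at least 10% Pomc. Rgs2 rested on 1 stress member that held 119 of its 196 UMIs, and its ratio of 1.25 dropped to 0.10 without the top member of each library.

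Transcription factors of the lineage were mostly close to level between the libraries. Tbx19 had a log2 ratio of -0.01 (-0.23 to 0.20), while it was -0.50 in the other barcodes, where it is rare. Pitx1, a partner of TPIT at the Pomc promoter, had 116 and 131 CPM (0.18, -0.10 to 0.47). Neurod1, a helix-loop-helix factor of the lineage, had 40.7 and 31.9 CPM (-0.35, -0.89 to 0.18). Of 12 factors listed, 10 were measured and 3 were above 0, none past 2-fold. Of all genes compared, 51.1% were above 0 and 0.926% past 2-fold in either direction. The list's median of -0.15 lay at -0.20 in the other barcodes. It ran from -0.21 to 0.15 over the alternatives, so it kept no direction.

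Glucocorticoid-responsive genes did not move in 1 direction in the members. Fkbp5, a receptor co-chaperone that glucocorticoids induce, had 92.0 and 103 CPM (0.17, -0.15 to 0.49), where it was -0.27 in the other barcodes. Tsc22d3 (GILZ) had 37.5 and 30.8 CPM (-0.29, -0.84 to 0.26) and Klf9 138 and 124 CPM (-0.16, -0.43 to 0.11). Mt1 was higher in the stress library (0.29, 0.24 to 0.35), as was Mt2 (0.19, 0.12 to 0.25). Cdkn1a, a cell cycle inhibitor, had 42.5 and 61.6 CPM (0.53, 0.09 to 0.99). Lower in the stress library were Cebpb, a transcription factor, with 114 and 64.3 CPM (-0.83, -1.18 to -0.49), and Ddit4 (REDD1), an inhibitor of mTOR signalling, with 170.2 and 117 CPM (-0.55, -0.81 to -0.28); both were above 0 in the other barcodes, at 0.13 and 0.19. Of 25 genes listed, 14 were measured, 8 above 0 and 1 past 2-fold, against 51.1% and 0.602% of all genes. The gene past 2-fold was Rgs2, most of whose UMIs came from 1 stress member. The median was 0.09 and ran from -0.24 to 0.12 over the alternatives, so it kept no direction. Nr3c1 had a log2 ratio of 0.08 (-0.18 to 0.35). Among its chaperones Hsp90aa1 had 0.46, Hsp90ab1 0.43 and Ptges3 0.33, and Fkbp4 had -0.15.

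Granule and exocytosis genes were near level as well: 19 of 26 were measured, 6 above 0 and none past 2-fold. Against this, 51.1% of all genes were above 0 and 0.926% past 2-fold in either direction. The list's median was -0.04, against -0.19 in the other barcodes. The granin genes Chgb, Scg2 and Scg3 had log2 ratios of -0.11, -0.03 and 0.08, and Chga had 323 and 279 CPM (-0.21, -0.39 to -0.03). Rab3a, a small GTPase of granule docking, was lowest with 131 and 89.1 CPM (-0.55, -0.86 to -0.25), and Rab27a, another docking GTPase, had 94.5 and 68.7 CPM (-0.46, -0.81 to -0.11). Cadps2, which primes granules for release, was highest with 71.9 and 94.0 CPM (0.38, 0.04 to 0.74). Vgf, a granin-like precursor, fell short of 100 UMIs, with 18 in the control and 71 in the stress library. Syt5, a calcium sensor outside the list, is described with the lowest genes.

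Over all 4321 genes with at least 100 UMIs in the members of both libraries together, 26 were at least 2-fold higher in the stress library (0.602%) and 14 at least 2-fold lower (0.324%), 40 in either direction (0.926%). The median log2 ratio was 0.01 in the members, -0.09 in the other barcodes and -0.13 in somatotropes for the same genes. Of the 26 higher genes, 7 were also at least 2-fold higher in the other barcodes: Hspa1a, Dnajb1, Hspb1, Jun, Fosb, Fos and Cartpt. Another 14 had a log2 ratio under 0.5 there, as did most of the 4321 genes, whose median there was -0.09. Of these 14, Mia, Rgs2 and Igfbp5 had most of their stress UMIs in 1 member (120 of 149, 119 of 196 and 89 of 111). None of the 14 lower genes was 2-fold lower in the other barcodes. The share of all genes past 2-fold in the other barcodes was not counted.

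Heat-shock genes, the chaperones that refold damaged protein, were higher in the stress library. Hspa1a, an inducible HSP70 gene, stood at 64.4 CPM in the control (103 UMIs in 38 members) and 573 CPM in the stress library (1042 UMIs in 160 members), a log2 ratio of 3.15 (2.86 to 3.46); the other barcodes had 2.60. Its reads can be shared with the nearly identical Hspa1b, which had 3 and 30 UMIs. Dnajb1, an HSP40 partner of HSP70, stood at 47.5 and 305 CPM (2.67, 2.33 to 3.05), with 1.72 in the other barcodes. Hspb1, a small heat-shock protein gene, stood at 78.2 and 275 CPM (1.81, 1.53 to 2.11), with 1.05 in the others. Past these 3 the ratios were smaller: Dnaja1 0.58, Hspa8 0.51, Hsp90aa1 0.46 and Hsp90ab1 0.43. Hspa4 was lowest with 97.6 and 92.4 CPM (-0.08). Of 20 listed genes, 17 were measured, 16 above 0 and 3 past 2-fold, against 51.1% and 0.602% of all genes. The median was 0.43, against 0.33 in the other barcodes, 0.24 in somatotropes and 0.63 in melanotropes. With each gene's ratio in the other barcodes subtracted, the median was 0.09, and Hspa1a had 0.55 and Dnajb1 0.95.

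Immediate-early genes, which cells switch on within minutes of a stimulus, were higher too. Fos stood at 444 CPM in the control (128 members with a UMI) and 1245 CPM in the stress library (175 members), a log2 ratio of 1.49 (1.37 to 1.61), with 1.35 in the other barcodes and 2.06 in somatotropes. Jun, its partner in AP-1, had 95.1 and 312 CPM (1.71), and Fosb 20.6 and 65.4 CPM (1.65). Zfp36, which brings about the decay of AU-rich messages, was the highest of the list with 25.6 and 97.9 CPM (1.92, 1.44 to 2.46). Its ratio was 0.93 in the other barcodes. In melanotropes, from few UMIs, Zfp36 was lower in the stress library, with 42.8 and 12.8 CPM (-1.66, -3.35 to -0.36). Egr1 had 118 and 233 CPM (0.98) and Ier2 270.3 and 634 CPM (1.23). Nr4a1 and Nr4a2, nuclear receptors that CRH induces and that bind the Pomc promoter, did not share this: Nr4a1 had 45.7 and 42.3 CPM (-0.11, -0.59 to 0.37), and Nr4a2 was the lowest of the list with 58.2 and 37.9 CPM (-0.61, -1.09 to -0.15). Of 30 listed genes, 15 were measured, 13 above 0 and 6 (Zfp36, Jun, Fosb, Fos, Gadd45g and Ier2) past 2-fold, against 51.1% and 0.602% of all genes; the median was 0.92, against 0.79 in the other barcodes, 1.40 in somatotropes and 0.37 in melanotropes. The median was 0.49 when each member counted equally and 0.03 with the ratios of the other barcodes subtracted. Atf3, with 4 and 59 UMIs, and Cyr61, with 0 and 22, fell short of the 100 UMIs.

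The levels per member of both lists were higher in the stress library as well. Per 2000 UMIs the median member had 4 immediate-early UMIs in the control and 6 in the stress library, and the upper quartile was 8 and 15. Heat-shock genes had medians of 9 and 13 UMIs, lower quartiles of 6 and 9 and upper quartiles of 11 and 17. In somatotropes the medians were 1 and 3 for immediate-early and 3 and 4 for heat-shock genes. Gh took a median 54.9% and 60.5% of a somatotrope's UMIs, so levels per 2000 UMIs are not comparable between the cell types.

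**Figure D3:**
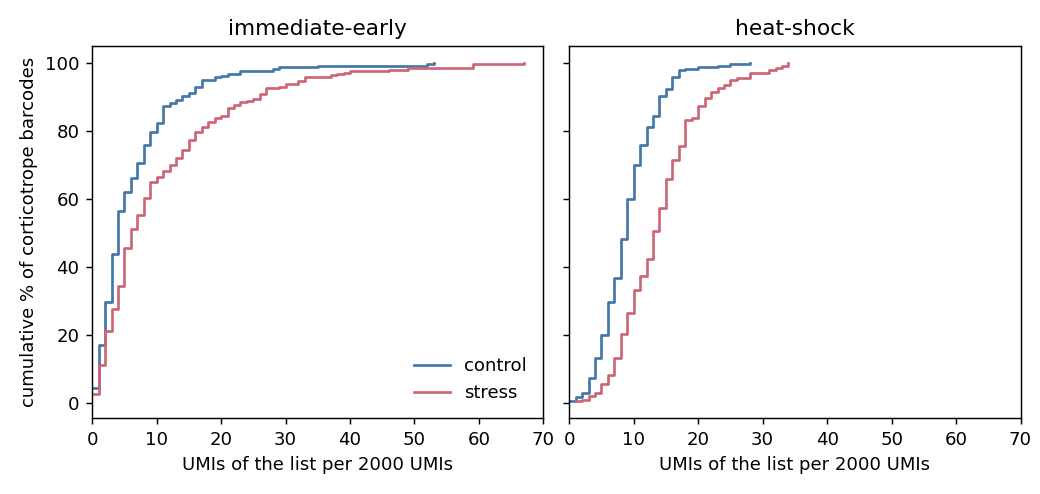
Cumulative percentage of corticotrope barcodes (y axis) against the UMIs of the immediate-early list (left) and the heat-shock list (right) per 2000 UMIs (x axis), control in blue and stress in red. The stress curve lies to the right, with medians of 4 and 6 on the left and 9 and 13 on the right.

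The promoters of Fos, Hspa1a and Hspb1 are shown as examples with a match, chosen after the motif search among genes at least 2-fold higher. Dnajb1, whose ratio was larger than that of Hspb1, held no GAANNTTC, and Jun, whose ratio was larger than that of Fos, held no TGACG. They are RefSeq's on GRCm38.p6, the 150 bases before each start: Fos at chr12:85473740-85473889 and Hspb1 at chr5:135887769-135887918 on the plus strand, and Hspa1a at chr17:34972157-34972306 on the minus strand. Capitals mark TGACG, the core of the cyclic AMP response element, in Fos, and GAANNTTC, a pair of inverted heat-shock element units, in the others.
Fos: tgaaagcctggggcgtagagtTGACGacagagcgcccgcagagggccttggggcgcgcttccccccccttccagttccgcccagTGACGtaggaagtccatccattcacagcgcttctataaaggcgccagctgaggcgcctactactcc
Hspa1a: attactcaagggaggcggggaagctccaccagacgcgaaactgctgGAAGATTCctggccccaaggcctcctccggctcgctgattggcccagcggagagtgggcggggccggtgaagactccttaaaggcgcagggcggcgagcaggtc
Hspb1: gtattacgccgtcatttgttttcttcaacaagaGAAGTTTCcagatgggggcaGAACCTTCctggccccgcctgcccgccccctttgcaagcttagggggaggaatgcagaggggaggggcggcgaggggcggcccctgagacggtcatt
The matches began 129 and 66 bases before the start of Fos, 104 bases before that of Hspa1a, and 117 and 97 bases before that of Hspb1. Within 250 bases before the start and on either strand, GAANNTTC was found in 6 of 15 heat-shock genes with an entry and in 7.73% of all genes, and TGACG in 14 of 24 immediate-early genes and in 19.8% of all genes. TGACG is part of TGACGTCA, which 3 of those 24 held.

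Some genes were at least 2-fold higher in stress members and had a log2 ratio under 0.5 in the pool of other barcodes. Ehd3, an ATPase of endocytic recycling, stood at 18.1 CPM in the control (29 UMIs in 23 members) and 72.02 CPM in the stress library (131 UMIs in 88 members), a log2 ratio of 1.97 (1.40 to 2.62). It had 8.23 and 7.77 CPM in the other barcodes (-0.08, -0.29 to 0.12), and after thinning 2.53% and 14.0% of members had a UMI, against 1.26% and 1.23% of somatotropes. Its ratio ran from 1.71 to 2.09 over the alternatives. Ehd3 lies on chromosome 17 from 73804134 to 73832094, on the plus strand. In melanotropes it had 2.25 and 10.7 CPM, too few UMIs to place (1.80, -0.92 to 7.81). The other genes of this kind were picked out after their values were seen. Haus8, of the spindle-associated augmin complex, had 46 and 142 UMIs (1.43, 0.95 to 1.95; others 0.01). Hbegf, a growth factor of the EGF family, had 25 and 76 UMIs (1.40; others 0.34), Gadd45g 60 and 176 (1.36; others 0.17), and Bambi, a decoy receptor for TGF-beta ligands, 64 and 156 (1.09; others 0.03). Krt18, a keratin, had 19.4 and 64.9 CPM (1.73; others 0.32, 0.26 to 0.38). The interval of Gadd45g in the other barcodes lay above 0 (0.10 to 0.24), as did that of Krt18. After thinning, Hbegf had 0.66 and was no longer past 2-fold, while Haus8, Gadd45g, Bambi and Krt18 stayed past it. For Krt18, 1 stress member held 34 of 118 UMIs, and the ratio was 1.38 without the top member of each library. The top 5 members held 53.3% of the Gadd45g UMIs in the control and 46.0% in the stress library. Melanotropes had ratios above 0 for several of these genes. Krt18 had 0.63 there, with an interval above 0 (0.001 to 1.30). From fewer UMIs, Hbegf had 2.04 (-0.54 to 8.03), Gadd45g 1.19 (-0.002 to 2.64) and Haus8 1.06 (-1.37 to 4.64), with Bambi at -0.08 (-2.20 to 2.04).

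Ceacam10, a member of the carcinoembryonic antigen family, had the highest ratio, with 8 UMIs (5.00 CPM) in control members and 101 (55.5 CPM) in 59 stress members (3.39, 2.44 to 4.72). The other barcodes had more of it, 36.9 and 71.0 CPM, and so did somatotropes, 47.2 and 90.5 CPM. After thinning 0.422% and 11.98% of members had a UMI of Ceacam10, against 8.10% and 15.1% of somatotropes, so its level in stress members does not exceed that of somatotropes; the part of free RNA in it was not tested. Gh, the leading transcript of somatotropes, had 34249 and 53011 CPM in the members and 566654 and 598145 CPM in somatotropes. Whether the differences in Gh and Ceacam10 share a source was not tested. Ceacam10 lies on chromosome 7 from 24777206 to 24784657, on the plus strand.

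Socs3, which damps LIF and interleukin-6 signals, had 31.9 and 91.3 CPM (1.51, 1.06 to 2.0), against 0.70 in the other barcodes. The top 5 members held 58.8% of the Socs3 UMIs in the control and 34.9% in the stress library. Of 14 genes listed for that pathway 5 were measured, 3 above 0 and 1 (Socs3) past 2-fold. Among all genes 51.1% were above 0 and 0.602% at least 2-fold higher. The other measured genes were not past 2-fold: Stat3 had -0.34, Jak1 0.13, Socs2 0.26 and Pim3 -0.34. Cartpt, a peptide precursor gene, had 74 UMIs in 13 control members and 212 UMIs in 39 stress members (1.33, 0.94 to 1.73), and the other barcodes had 1.23. Few members carried most of it: the top 5 members held 87.8% of its UMIs in the control and 51.9% in the stress library, and with the gene's ratio in the other barcodes subtracted 0.10 was left. Mia, a secreted protein gene, had 1 stress member with 120 of 149 UMIs, and its ratio of 2.48 dropped to 0.34 without the top member of each library.

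Of the 14 genes at least 2-fold lower, 8 were spread over many members. Etnppl, which breaks down phosphoethanolamine, stood at 90.7 CPM in the control (145 UMIs in 74 members) and 34.1 CPM in the stress library (62 UMIs in 48 members), a log2 ratio of -1.41 (-1.87 to -0.97). It is rare elsewhere, with 1.49 and 0.935 CPM in the other barcodes (-0.67, -1.23 to -0.13) and 0.444 and 0.360 CPM in somatotropes. Etnppl lies on chromosome 3 from 130617448 to 130637521, on the plus strand. Ddit4l, an mTOR inhibitor related to REDD1, had 82.6 and 31.3 CPM (-1.39; others -0.49). Syt5, a calcium sensor of vesicle fusion, had 78.2 CPM (88 members with a UMI) and 32.4 CPM (48 members), a ratio of -1.26 (-1.74 to -0.81), against -0.16 in the other barcodes. Id2, an inhibitor of helix-loop-helix factors, had 69.4 and 29.7 CPM (-1.22), and Aloxe3, a lipoxygenase, 54.4 and 21.99 CPM (-1.30). Pbxip1, which binds PBX factors, had 126 CPM (131 members) and 58.3 CPM (78 members), a ratio of -1.11 (-1.46 to -0.76). Sh3bp1, Usp51, Pccb, Paxbp1 and Stag2 had ratios from -1.12 to -0.94. In melanotropes Id2 had 0.91 (0.20 to 1.68), Aloxe3 1.02 (0.20 to 1.93) and Sh3bp1 0.99 (0.06 to 2.05). The melanotrope intervals of the other genes named in this paragraph spanned 0. After thinning, Aloxe3, Syt5 and Sh3bp1 were no longer past 2-fold, with Aloxe3 at -0.32, Syt5 at -0.67 and Sh3bp1 at -0.81. With the ratio in the other barcodes subtracted, Syt5 alone of these 8 genes stayed past 2-fold (-1.11), and Etnppl had -0.74.

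The other 6 of the 14, Itih5, Dcn, Igfbp7, Apoe, Ifitm3 and Mgp, were named after their values were seen and include genes of connective tissue, vessels and macrophages. Apoe stood at 454 and 195 CPM (-1.22, -1.41 to -1.03), but 1 control member held 296 of its 726 UMIs, and the ratio was -0.52 without the top member of each library. Dcn, a fibroblast proteoglycan gene, had 143 UMIs in 9 control members and 48 in 5 stress members. Summed over 5 fibroblast markers, the members had 201 and 87 UMIs, over 6 endothelial markers 93 and 19, over 4 pericyte markers 51 and 4, and over 6 macrophage markers 91 and 33. In the control library the highest single member of each list held 78, 70, 37 and 76 of these, in that order. With the 8 control and 9 stress members that had 5 or more such UMIs left out, 23 genes were at least 2-fold higher and 10 lower, Apoe had -0.32, Dcn -0.45 and Igfbp7 -1.22, and Ehd3 had 1.97 and Etnppl -1.38. S100b, Cspg4, Cd3e, Cd3g, Ms4a1, Alas2 and Nkx2-1 were at 0 UMIs in the members of both libraries.

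Remaining lists showed small ratios. For comparison, 51.1% of all genes compared were above 0 and 0.926% past 2-fold in either direction. All 8 measured clock genes of 17 were below 0, with a median of -0.32, near the -0.27 of the other barcodes; Per3 had 152 and 113 CPM (-0.43, -0.71 to -0.16) and Rora was lowest at -0.50, while Dbp was at -0.02. Cirbp and Rbm3, whose messages rise in the cold, had -0.28 and -0.17, against -0.56 and -0.20 in the others. Of 18 unfolded protein and integrated stress response genes, 15 were measured, 8 above 0 and none past 2-fold, with a median of 0.05; Atf4, the main effector of the integrated stress response, was highest with 68.2 and 111 CPM (0.70, 0.36 to 1.05), and Hspa5 (BiP) had -0.12. Of 22 ion channel genes, 5 were measured, with Kcnk1 highest at 0.40 and Cacna2d1 lowest at -0.29. All 5 measured cholesterol synthesis genes of 19 lay between 0.02 and 0.16. Of the 16 respiratory chain genes of the nucleus, 9 were above 0 (median 0.06, from -0.27 for Ndufb8 to 0.25 for Uqcrc1), and of 12 mitochondrially encoded ones 5 (median -0.09). In the interferon list 3 of 15 were measured, H2-K1 highest at 0.28. None of 8 proliferation genes reached 100 UMIs, and Mki67 had 1 and 2 UMIs.

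**Figure D4:**
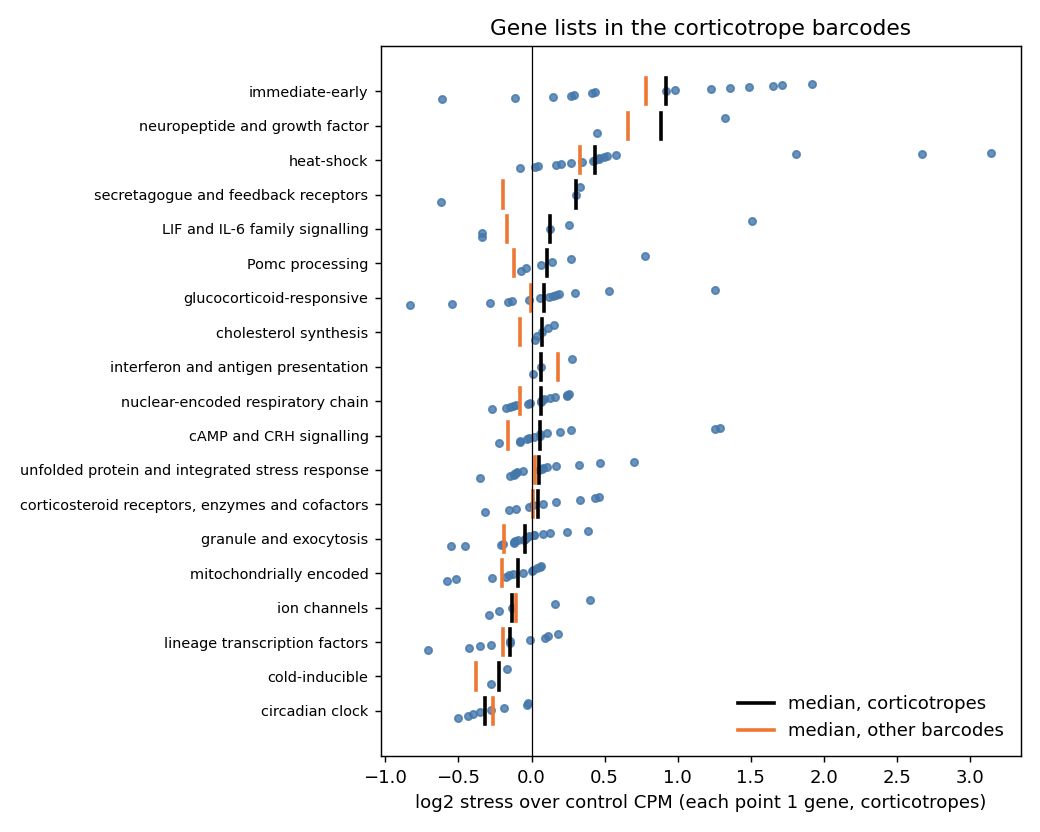
The log2 ratio of stress over control CPM in corticotrope members (x axis) for each measured gene of 19 lists (rows, 1 point per gene), with the list's median in members in black and in the other barcodes in orange. Immediate-early and heat-shock genes reach above 1, and the medians of the other lists, apart from the 2 measured neuropeptide genes, lie between -0.32 and 0.31.

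Members differed among themselves in how much Pomc they held. They were split within each library into 3 groups of equal size by Pomc share, with medians of 7.14%, 12.9% and 24.3% in the control and 7.45%, 12.9% and 22.5% in the stress library. Because Pomc is part of each total, the levels below are given per 1000000 UMIs other than Pomc. Nmb was higher in members with more Pomc in both libraries, at 63.4, 195 and 391 in the control and 125, 350 and 436 in the stress library. Tnnt1 went the other way, at 265, 159.5 and 67.6 and at 264, 193 and 131, and so did Rprml, at 159, 148 and 69.7 and at 146, 139 and 66.4. Tbx19 was lower in Pomc-rich members too, at 304, 257 and 209 and at 277, 256 and 210. Crhr1 had no such order, with 163, 212 and 137 in the control and 211, 214 and 190 in the stress library. The granule list as a whole was higher with more Pomc, at 8177, 9507 and 11054 and at 7884, 8659 and 11372, and Cpe likewise, at 890.5, 1109 and 1408 and at 1064, 1153 and 1562. The unfolded protein list had 2601, 3001 and 3576 and then 2768, 3004 and 3658. The median depth also differed between the groups in the control library, with 5893, 6194 and 8517 UMIs, and less so in the stress library, with 6718, 7862 and 7783; its part in these levels was not tested.

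The difference between the libraries was found within each of these groups for some of the highest and lowest genes and not for others. Ehd3 had log2 ratios of 2.35, 1.58 and 1.80 from the Pomc-poor to the Pomc-rich group, Hspa1a 2.46, 3.44 and 3.71, Dnajb1 2.82, 2.19 and 2.86, and Fos 1.5, 1.60 and 1.31. Etnppl had -1.76, -0.85 and -1.97. Syt5 and Pbxip1 also had intervals below 0 in every group. Among the others, Mia had 4.57, 0.33 and -0.47. The interval spanned 0 for Krt18 in the middle group (0.96, -0.05 to 2.15) and Ddit4l in the Pomc-poor group (-0.33, -1.13 to 0.47). So did that of Id2 in the middle group (-0.24, -1.29 to 0.83). Aloxe3 spanned 0 in the Pomc-poor (-1.33, -3.08 to 0.10) and Pomc-rich group (-0.74, -1.65 to 0.10). Apoe, Sh3bp1 and Usp51 did so in the Pomc-rich group and Paxbp1 in the middle group. Pccb did so in the Pomc-poor and Pomc-rich groups, and Stag2 in the middle and Pomc-rich groups. Pcsk1 had 1.11, 0.21 and 1.08, with the interval of the middle group (-0.36 to 0.80) spanning 0. Nr4a2 had 0.94, -0.77 and -1.20, with an interval below 0 in the Pomc-rich group alone (-2.03 to -0.47). Nmb had 0.96, 0.83 and 0.18. These were not tests of a difference between the groups of members.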

How the data were processed

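The authors deposited UMI counts per gene and barcode for 6 libraries from 10x droplets, 1 control and 1 stress library for each of 3 tissues; the 2 pituitary libraries were used here. The submitters' processing notes name mm10 as the build and, as tools, Scanpy and version 2.1.1 of Cell Ranger; in the sources used here a filter on barcodes before deposit is not given. Each matrix listed 27998 genes, and the 56 symbols listed more than once were kept apart by their IDs.

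Members were chosen by the limits on UMIs given in the report. The members, the gene lists and the comparisons were chosen with earlier results of these data known. UMIs were summed over members per library and given as CPM (UMIs per 1000000) with exact Poisson intervals. Ratios of stress over control were taken on the log2 scale after 0.5 UMI was added to each sum, with exact 95% intervals that cover counting error only. Shares have exact Clopper-Pearson intervals. A gene was compared, or "measured", if the members of both libraries together had at least 100 UMIs. With 1 library per group no test was made. The scripts were tested on simulated data.

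The text names the 12 genes with the highest and the 12 with the lowest ratio among those with a UMI in at least 10% of the members of the higher library, the 15 genes leading over other barcodes, the highest and lowest gene of each list, and 13 genes chosen by role. A leading gene and a gene of the lists that this rule names are not reported here. Further genes of the lists are named for their role, with their values known. Doublets were not called. Alternatives changed the limits, depth, scaling, weights and the minimum of UMIs; leaving out members with non-endocrine markers, or the top member of a gene, was added after the data were seen. Python 3.11.15 with numpy 2.4.6, scipy 1.17.1, pandas 2.3.3 and matplotlib 3.10.9 was used.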

Additional observations from a re-analysis of the deposited data

Results flagged for a closer look

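For 6 genes at least 2-fold lower in stress members the pool of other pituitary barcodes had a ratio above 0. The difference was not tested. The log2 ratio of stress over control was -2.08 for Itih5 (0.60 in the other barcodes), -1.75 for Dcn (0.41), -1.62 for Igfbp7 (0.42), -1.22 for Apoe (0.14), -1.21 for Ifitm3 (0.43) and -1.21 for Mgp (0.38). Within that pool, somatotropes had ratios below 0 for Itih5 (-0.68, -1.08 to -0.29), Igfbp7 (-0.33, -0.57 to -0.10) and Apoe (-0.23, -0.29 to -0.17). The somatotrope intervals of Dcn, Ifitm3 and Mgp spanned 0. Melanotropes had -1.46 (-2.13 to -0.85) for Apoe. Igfbp7 and Ifitm3 had 4.01 in melanotropes, from 0 CPM in the control library. Itih5, Dcn and Mgp were too sparse there to place. The 5 members with the most UMIs held 94.9% of Itih5 and 97.2% of Dcn in the control library and 100% of both in the stress library. With the members that had 5 or more UMIs of non-endocrine markers left out (8 control and 9 stress), the ratios were -0.16 for Itih5, -0.45 for Dcn, -1.22 for Igfbp7, -0.32 for Apoe, -0.16 for Ifitm3 and -0.69 for Mgp.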

How the results depend on the processing

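No paired analysis was possible because each group was 1 library. The member share was 3.03% (control) and 3.18% (stress) with at least 10% Pomc, and 4.12% (stress) with at most 10% mitochondrial UMIs. Against 26 genes at least 2-fold higher and 14 lower, thinning to 2000 UMIs left 6 and 2, a minimum of 30 UMIs gave 100 and 88, and a minimum of 300 UMIs gave 6 and 2; each of these changed the number of genes compared. Subtracting each gene's ratio in the other pituitary barcodes left 9 lower genes. The immediate-early median of 0.92 was 0.63 after thinning, 0.49 with the mean of per-barcode CPM and 0.026 with the other barcodes subtracted, and the heat-shock median of 0.43 was 0.095 with the other barcodes subtracted. That subtraction also turned the medians of the cold-inducible list (0.15) and of the mitochondrially encoded list (0.13). With at least 10% Pomc, Mia turned to -0.10 and Rgs2 to -0.10; the cause was not tested. Of 24 named genes past 2-fold, 7 stayed past it with the other barcodes subtracted, 18 with at least 10% Pomc, 19 after thinning and 20 without the members with non-endocrine markers; under the other 8 alternatives 21 to 24 did. Low UMI counts limit most single genes: the median distance from a ratio to its interval's ends was 0.40.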
